A study of Mus musculus with 9 samples.

Results

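The rows described here are the 100 whose read counts in white adipose tissue were lowest in vehicle-treated mice on a high fat diet and higher both on a normal diet and when B-LGND2 accompanied the high fat diet. They were chosen by their CPM, the count divided by the library's total count and multiplied by 1000000, in all 9 libraries. A row had to average 5 CPM or more across all libraries, and its range on the normal diet had to overlap its range with B-LGND2. The lowest of those 6 values was then divided by the highest of the 3 values on the high fat diet with vehicle, after adding 0.1 CPM to both. Of 39130 rows, 15095 met the minimum mean and 11786 of these also met the overlap condition. A ratio above 1 was found in 108 rows, and the 100 with the largest ratio are the members. The direction of every member in the diet and ligand comparisons is therefore a condition of the choice and not a result.

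The animals were male C57BL/6 mice, an inbred laboratory strain, fed and treated for 9 weeks. A normal diet with vehicle, a high fat diet with vehicle and a high fat diet with B-LGND2 formed the 3 groups, with 3 libraries in each; none of these groups received B-LGND2 on the normal diet, so the ligand can be compared with vehicle on the high fat diet alone. The series title places B-LGND2 among ligands of estrogen receptor beta. The labels do not state which fat depot was taken, the dose or the structure of the ligand, or whether each library came from a single animal, so the spread that p-values rest on is that between libraries and may be technical.

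White adipose tissue stores energy as triglyceride and secretes hormones that act on appetite and insulin sensitivity. Prolonged high fat feeding enlarges fat cells and commonly brings immune cells into the tissue. Estrogen receptor beta is a nuclear hormone receptor that, bound by a ligand, regulates transcription from its target genes. These points are background. Each row of the table is a sequence record named by a GI number, no gene name accompanies the numbers in the files, and no reference table used here matched them, so no gene, role or sequence is given for any member. For the same reason the tissue could not be checked against marker genes, and a lower level in fewer cells of a type cannot be told apart from less RNA per cell.

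Depth was between 30067542 and 43129222 counts per library. Several libraries stood apart from their groups. Over the 15095 rows averaging 5 CPM or more, log2 CPM correlated across rows at 0.984 between normal diet vehicle replicates 1 and 3, but at 0.623 and 0.592 between these and replicate 2, which was closest to B-LGND2 replicate 1 at 0.948. High fat diet vehicle replicate 1 was closest to B-LGND2 replicate 2, at 0.939, and correlated with its own group at 0.771 and 0.778. Replicate 2 of that group was closest to normal diet vehicle replicate 2, at 0.888, and correlated with replicate 3 of its own group at 0.682. For replicate 3 the 0.778 with replicate 1 was its highest correlation with any library. Among the B-LGND2 libraries, replicates 1 and 3 correlated at 0.981, and replicate 2 correlated with them at 0.793 and 0.790. B-LGND2 replicate 3 correlated at 0.946 with normal diet vehicle replicate 2. Rows are not independent replicates. A set of 115 rows, chosen after their values were seen by taking 100 CPM as the minimum in normal diet vehicle replicates 1 and 3 and 1 CPM as the maximum in replicate 2, took 11.4% and 11.5% of counts in replicates 1 and 3 and 0.00332% in replicate 2. Its share was 6.65, 1.86 and 2.14% in high fat diet vehicle replicates 1 to 3 and 0.0173, 4.80 and 0.0198% in B-LGND2 replicates 1 to 3. None of the 100 members belonged to it, but it enters the column totals on which every CPM depends.

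In the high fat diet vehicle libraries nearly all members lay below their own mean log2 CPM; the exceptions were 3 members in replicate 1, with 0 in replicates 2 and 3. Their median level was 36.4, 39.3 and 36.4 CPM in normal diet vehicle replicates 1 to 3, 29.2, 27.4 and 26.4 CPM in high fat diet vehicle replicates 1 to 3, and 38.1, 37.9 and 40.5 CPM in B-LGND2 replicates 1 to 3. All 3 medians of the high fat diet vehicle libraries were below the other 6. The rule put each member's values in these libraries below its other 6, so this order was fixed by the choice. The same holds for the order of the summed shares and relative medians that follow. Summed over the members, the share of all counts in the high fat diet vehicle libraries was 0.356 to 0.395%, against 0.514 to 0.543% for the normal diet and 0.509 to 0.590% for B-LGND2. Relative to each row's own mean log2 CPM, the median was -0.20, -0.27 and -0.37 in the high fat diet vehicle libraries, between 0.06 and 0.15 on the normal diet, and between 0.10 and 0.22 with B-LGND2.

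**Figure D1:**
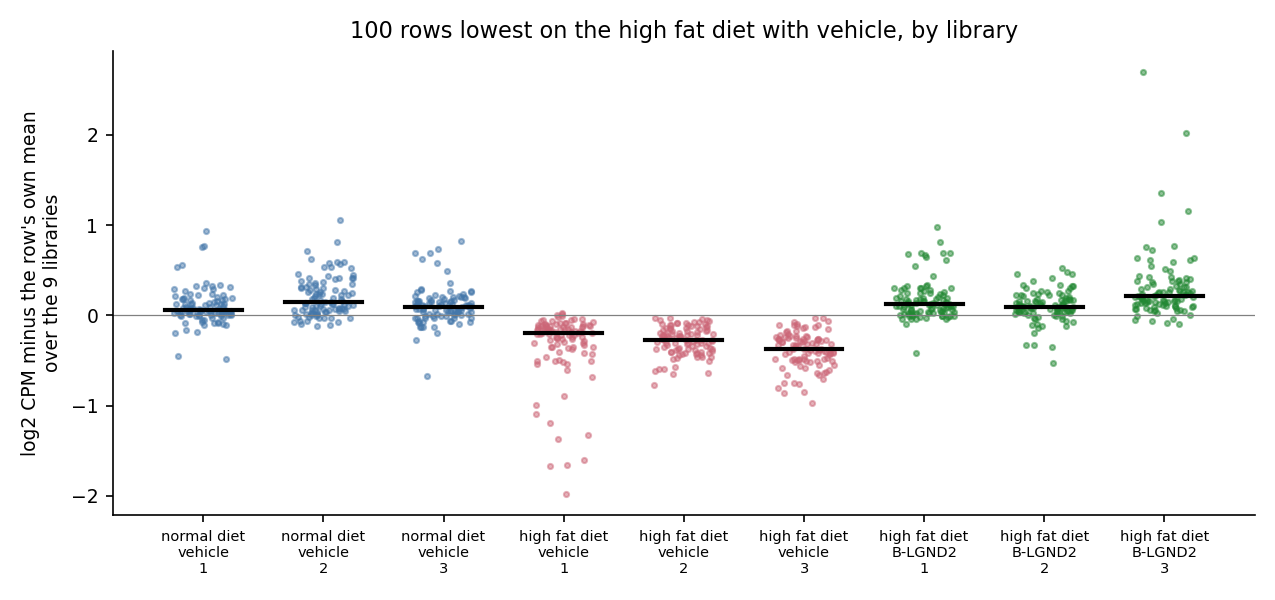
Level of the 100 members in each library, as log2 CPM minus the row's mean over the 9 libraries; 1 point per member, black bars are medians. The medians of high fat diet vehicle replicates 1 to 3 are -0.20, -0.27 and -0.37, and their place below the other libraries is set by the rule. A tail of members reaches -1.98 in replicate 1 of that group, while B-LGND2 replicate 3 reaches 2.70.

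By column totals, the scaling of the choice, most differences were under 1.5-fold. The ratio of the normal diet mean to the high fat diet vehicle mean had a median of 1.32 over the members, with a range of 1.11 to 2.80. That of B-LGND2 to vehicle on the high fat diet had a median of 1.35 and a range of 1.099 to 4.97. Of the 100 members, 18 exceeded 1.5-fold and 7 exceeded 2-fold for diet, 25 exceeded 1.5-fold and 8 exceeded 2-fold for B-LGND2, and 4 exceeded 2-fold in both. On the log2 scale the median over the members was -0.40 for high fat diet vehicle over normal diet vehicle and 0.43 for B-LGND2 over vehicle. Over all 11786 rows that met the mean and overlap conditions the medians were 0.07 and -0.05. The sizes moved with the scaling. TMM (trimmed mean of M-values) scales each library's total by a trimmed mean of its log ratios to a reference library. With totals scaled by TMM the median ratio was 1.58 for diet and 1.45 for B-LGND2. By TMM 73 members exceeded 1.5-fold for diet and 36 for B-LGND2, and 12 exceeded 2-fold in each. The median log2 difference for diet was then -0.66 over the members and -0.19 over the 11786 rows, and for B-LGND2 it was 0.53 and 0.04. In both comparisons the median over the 11786 rows thus moved in the same direction as that of the members. The 2 comparisons share the high fat diet vehicle libraries.

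The members were rows with little spread between replicates, a property that a selection on extremes of 6 and 3 values favours. Their median coefficient of variation was 9.29% on the normal diet, 9.95% in the high fat diet vehicle group and 8.71% with B-LGND2. Over the 11786 rows it was 34.99%, 29.9% and 20.4%. Mean levels ran from 5.18 to 483.5 CPM with a median of 34.4 CPM, against 25.4 CPM over the 11786 rows. The 13 members below 10 CPM had median ratios of 1.47 for diet and 1.57 for B-LGND2. The 80 between 10 and 100 CPM had 1.31 and 1.34, and the 7 at 100 CPM or more had 1.253 and 1.35. No member, and none of the 11786 rows, repeated the counts of another row in all 9 libraries.

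The gap between the groups was narrow. The selection ratio was at most 1.32, had a median of 1.06, and exceeded 1.1 in 33 members and 1.2 in 11. The last row taken, at a ratio of 1.0065, was at 19.4 CPM in the lowest normal diet library and 19.3 CPM in the highest high fat diet vehicle library. The first row left out, at 1.0063, was at 21.96 CPM in the lowest B-LGND2 library and 21.8 CPM in the highest high fat diet vehicle library. The limit of 100 rows thus separated rows with nearly the same gap. Counting error was set against the gap by a 95% exact (Clopper-Pearson) interval for the CPM ratio between the 2 libraries that define it. Those libraries were picked by the rule, which required their ratio to exceed 1, so the interval describes the depth behind the gap and tests nothing. It lay above 1 in 33 members and included 1 in 67. The share was 4 of 13 below 10 CPM, 25 of 80 between 10 and 100 CPM and 4 of 7 at 100 CPM or more. PCR copies are not independent molecules, so the intervals cover counting error only. The upper edge was set by high fat diet vehicle replicate 1 in 44 members, by replicate 2 in 38 and by replicate 3 in 18. The lower edge was set by normal diet vehicle replicates 1 to 3 in 21, 17 and 18 members and by B-LGND2 replicates 1 to 3 in 18, 19 and 7.

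**Figure D2:**
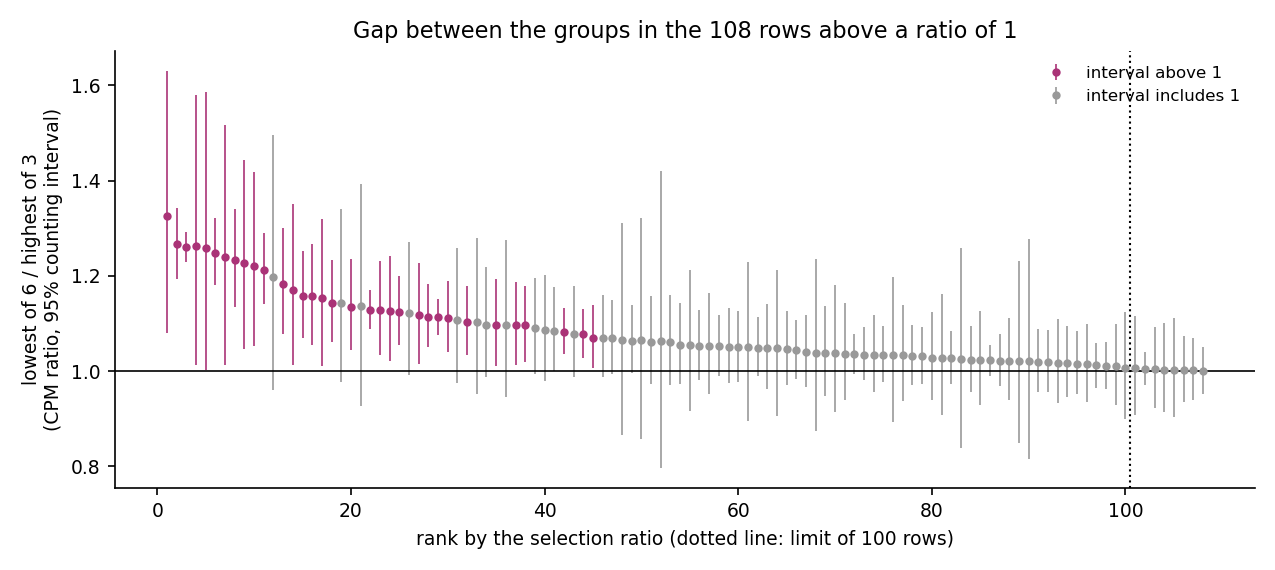
Gap between groups in the 108 rows above a selection ratio of 1, ordered by that ratio: CPM of the lowest of the 6 normal diet and B-LGND2 libraries over CPM of the highest of the 3 high fat diet vehicle libraries, with 95% exact counting intervals. Intervals above 1 are in purple (33 of the 100 members) and those that include 1 in grey, and the ratios approach 1 well before the limit at 100 rows.

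The largest selection ratio belonged to GI 125490372. It was at 10.4, 6.99 and 8.54 CPM in normal diet vehicle replicates 1 to 3, at 2.67, 4.42 and 4.36 CPM in high fat diet vehicle replicates 1 to 3 and at 9.73, 6.38 and 5.87 CPM in B-LGND2 replicates 1 to 3. The level was low in all 3 high fat diet vehicle libraries, and in B-LGND2 replicates 2 and 3 it stayed below the mean of the normal diet. The means were 8.65 ± 1.72, 3.82 ± 0.995 and 7.325 ± 2.10 CPM (SD, n = 3 each), and the smallest count behind any of the 9 values was 90. The gap of 1.33-fold had a 95% interval of 1.08 to 1.63.

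GI 142374935 was the most abundant member. Its level was 628, 442 and 757 CPM in normal diet vehicle replicates 1 to 3, 136, 351 and 236 CPM in high fat diet vehicle replicates 1 to 3, and 750.3, 453 and 599 CPM in B-LGND2 replicates 1 to 3. The B-LGND2 libraries spanned nearly the range of the normal diet libraries, and high fat diet vehicle replicate 1 was the lowest of all 9. The means were 609 ± 158 CPM on the normal diet, 241 ± 108 CPM for the high fat diet vehicle group and 601 ± 149 CPM with B-LGND2 (SD, n = 3 each). With at least 4574 counts behind each value, its gap of 1.26-fold had a 95% interval of 1.23 to 1.29.

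Of the members with the largest differences, that at rank 60 by the selection ratio had the largest diet ratio, 2.80. It was at 119.9, 106.1 and 118.1 CPM on the normal diet, at 35.7, 46.8 and 40.5 CPM in the high fat diet vehicle libraries and at 80.2, 49.2 and 110.02 CPM with B-LGND2. Both vehicle groups were tight, and B-LGND2 replicate 2 lay close to the high fat diet vehicle level. The member at rank 59 was at 48.5, 111.0 and 42.5 CPM on the normal diet, at 36.4, 39.7 and 40.4 CPM in the high fat diet vehicle libraries and at 133.5, 97.6 and 173.9 CPM with B-LGND2. Its B-LGND2 mean was 3.48 times the vehicle mean on the high fat diet and 1.00 above the normal diet mean on the log2 scale; the ranges overlapped through normal diet vehicle replicate 2. In the member at rank 52, with the largest B-LGND2 ratio of 4.97, the B-LGND2 libraries were at 2.74, 5.06 and 23.6 CPM, the normal diet libraries at 3.62, 3.67 and 3.02 CPM and the high fat diet vehicle libraries at 1.45, 2.57 and 2.29 CPM. B-LGND2 replicate 3 alone lay above 5.06 CPM. Without that library the row's mean was below the minimum of 5 CPM, so its membership and its ratio both rest on B-LGND2 replicate 3. Rank 48 was at 11.7, 5.98 and 30.5 CPM with B-LGND2 at 1.897, 5.61 and 4.16 CPM in the high fat diet vehicle libraries and at 7.04, 15.6 and 7.15 CPM on the normal diet, again highest in B-LGND2 replicate 3.

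**Figure D3:**
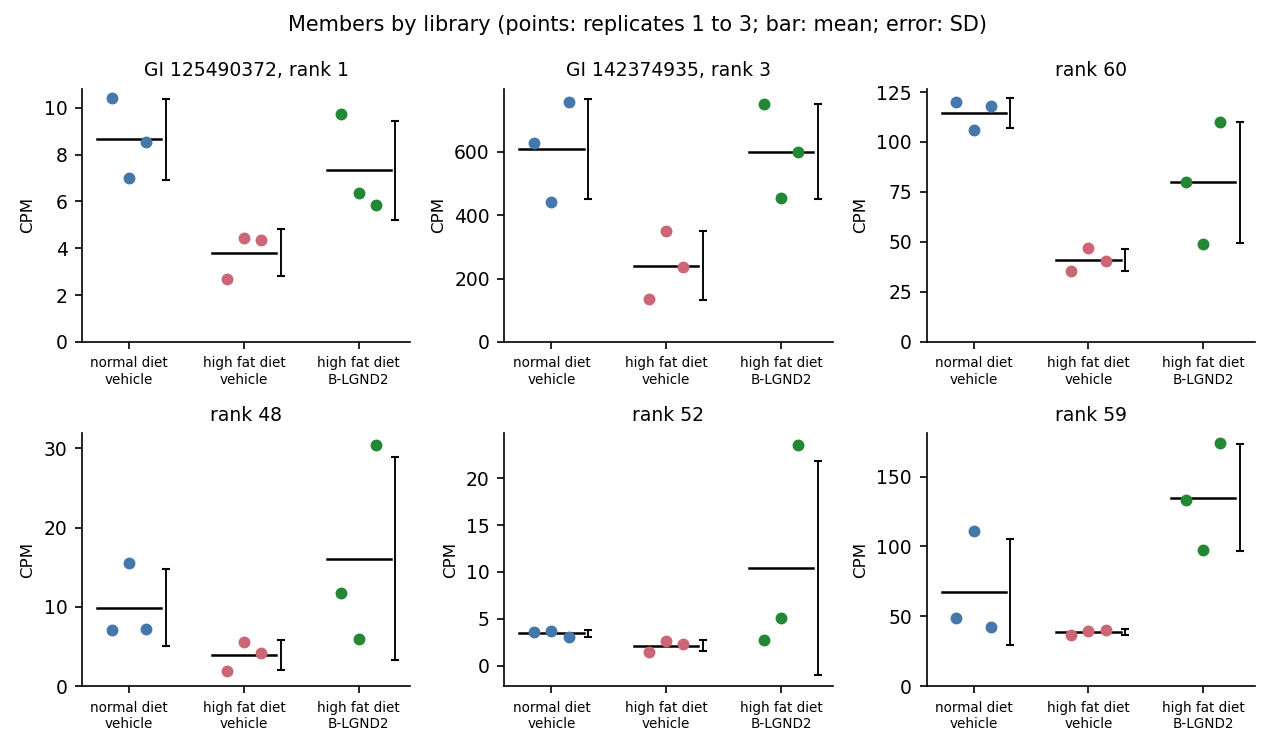
CPM in each library of the member with the largest selection ratio, the most abundant member and the 4 members with the largest diet or B-LGND2 ratios; points are replicates 1 to 3 from left to right, bars are means and error bars SD. High fat diet vehicle lies below the other 6 points in each panel by the rule. At rank 52, B-LGND2 replicate 3, at 23.6 CPM, stands far above the other 8 points, and without it the row would miss the minimum mean of 5 CPM.

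Larger differences went with particular libraries. In 11 members the mean ratio exceeded 2-fold for diet or for B-LGND2. High fat diet vehicle replicate 1 was the lowest of its group in 9 of these 11 and in 17 of the other 89. B-LGND2 replicate 2 was the lowest of its group in 8 of the 11 and in 41 of the 89, and both held in 7 of the 11 and in 12 of the 89. These 2 libraries are the pair that correlated at 0.939 over the rows averaging 5 CPM or more. B-LGND2 replicate 3 was the highest of its group in 8 of the 11 and 50 of the 89. Within groups, 46.9% of the spread of log2 CPM among the members lay along a single component, on which B-LGND2 replicates 2 and 3 (weights of -0.52 and 0.60) and high fat diet vehicle replicate 1 (-0.39) were farthest out, and 10 members supplied 81.3% of it. The part of these libraries in the size of the ratios was not tested beyond leaving each out. Over the 11 members the median ratio was 2.27 for diet and 2.49 for B-LGND2, and without high fat diet vehicle replicate 1 it was 1.97 and 2.09. For diet 4 of the 11 then exceeded 2-fold, where 7 had with all libraries, and for B-LGND2 7 did, where 8 had. For B-LGND2 the median ratio was 2.80 without B-LGND2 replicate 2 and 2.11 without B-LGND2 replicate 3. The numbers above 2-fold were then 10 and 8. The 11 were chosen by ratios that include these libraries. Over all 100 members the median log2 difference without high fat diet vehicle replicate 1 was -0.43 for diet and 0.48 for B-LGND2, farther from 0 than with it.

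With B-LGND2 the members were near their normal diet level, where overlapping ranges were a condition but the side was not. In rows with little spread between replicates, overlap keeps the group means close, so the nearness is no separate result. By column totals the log2 ratio of the B-LGND2 mean to the normal diet mean had a median of 0.04 and a range of -0.52 to 1.61. Within 0.25 of zero lay 87 members. The quartiles were -0.05 and 0.12 over the members and -0.20 and 0.44 over the 11786 rows. The B-LGND2 mean was the higher in 61 members and the lower in 39. This balance followed the scaling: with TMM scaling 18 were higher and 82 lower, and the median was -0.13. Over the 11786 rows the same median moved from 0.11 by column totals to -0.06 by TMM. Without B-LGND2 replicate 3 the median over the members was -0.01. A side of the normal diet level can therefore not be given for the members as a set. By column totals the rule itself fixed a lower mean on the high fat diet with vehicle than in either other group. The same held for all 100 by TMM, but in members chosen for that direction it is no separate result.

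**Figure D4:**
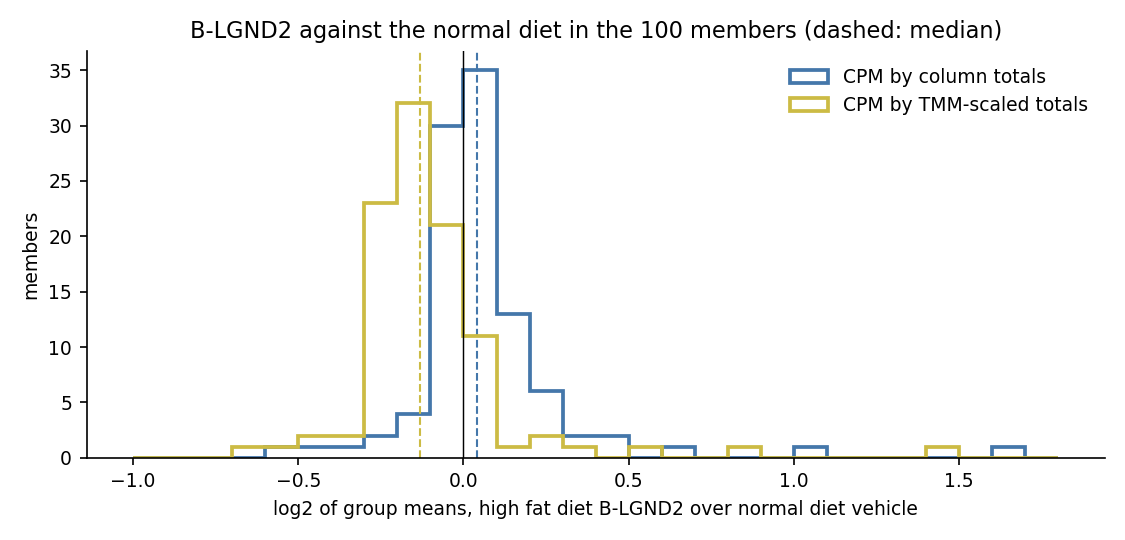
Distribution over the 100 members of the log2 ratio of the high fat diet B-LGND2 mean to the normal diet vehicle mean, by column totals (blue) and by TMM-scaled totals (yellow), with dashed medians. The median is 0.04 by column totals and -0.13 by TMM, on opposite sides of 0.

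The number of rows of this kind was set beside the numbers for the other patterns, by the same rule with each group in turn as the lowest or the highest. By column totals 108 rows were lowest in the high fat diet vehicle group (0.916% of 11786) and also 108 were highest there. Lowest on the normal diet were 651 rows (5.13% of 12698) and highest 79. With B-LGND2, 108 rows were lowest and 757 highest (5.55% of 13647). By column totals the widest gaps were narrower among the rows described here than among the mirrored ones: the largest ratio was 1.32 against 3.30, and 11 against 20 rows exceeded 1.2. Farther down the order this did not hold, with 1.0275 against 1.0225 at rank 80. By TMM the largest ratio was 1.59 against 2.86, but 33 rows against 12 exceeded 1.2. These are counts, with no test of a difference. They moved with the scaling. By TMM, 465 rows were lowest (3.68% of 12640) and 46 highest in the high fat diet vehicle group, 144 lowest and 465 highest on the normal diet, and 139 lowest and 375 highest with B-LGND2. By TMM 87 of the 100 members still had a ratio above 1, 79 also met the other conditions, and 39 were among the 100 largest.

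**Figure D5:**
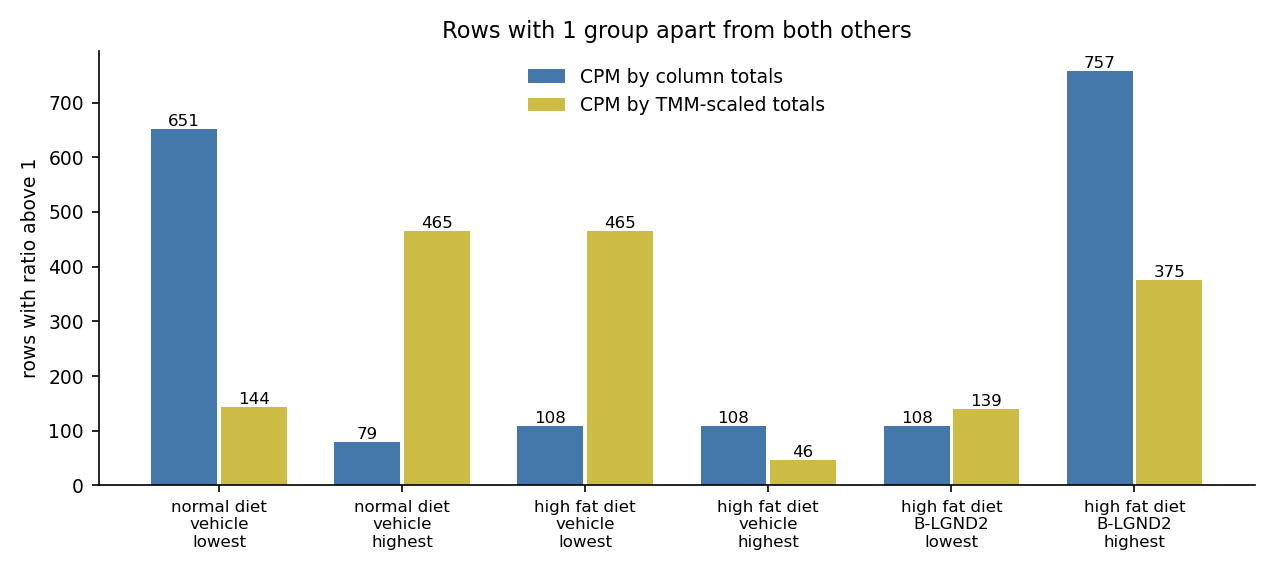
Number of rows in which 1 group lay below or above all 6 libraries of the other groups, by column totals (blue) and by TMM-scaled totals (yellow). Only rows averaging 5 CPM or more, with overlapping ranges of the other groups, are counted. Rows lowest on the high fat diet with vehicle number 108 by column totals and 465 by TMM, and those highest there 108 and 46.

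All 100 members entered a limma-voom fit over 28831 rows and all 9 libraries, with TMM scaling. It called 0 members lower on the high fat diet than on the normal diet with vehicle at an adjusted p under 0.05, with 0% of all tested rows called, and 0 members higher with B-LGND2 than its vehicle control, again with 0% called. Between B-LGND2 and the normal diet 0 members were called in either direction, with 0% called. At an unadjusted threshold of 0.05 the fit had 92 members lower on the high fat diet, where 3.71% of all rows were lower, 56 higher with B-LGND2, where 3.50% of all rows were higher, and 1 different between B-LGND2 and the normal diet, where 10.1% were. These unadjusted counts moved with the settings. For diet they were 32 with scaling by total counts alone (0.715% of all rows), 33 in a fit of the 6 vehicle libraries alone (1.06%), 60 without high fat diet vehicle replicate 3 (2.16%), 60 without B-LGND2 replicate 3 (1.78%) and 58 without normal diet vehicle replicate 2 and B-LGND2 replicate 2 together (10.4%). For B-LGND2 they were 10 without B-LGND2 replicate 3 (0.919%), 25 without B-LGND2 replicate 1 (2.13%), 25 when high fat diet vehicle replicate 3 was left out (2.36%) and 31 when replicate 1 of that group was (2.72%). Between B-LGND2 and the normal diet they were 3 without normal diet vehicle replicate 2 (26.1%), 2 without that library and B-LGND2 replicate 2 (29.9%), 2 with median-of-ratios size factors (10.1%) and at most 1 in the other settings. Limma-trend, added after the data were seen, likewise called 0 members in each comparison, with 0% of all rows called. The members were chosen on these same contrasts, so the counts describe the choice and support nothing about diet or ligand. Adjusted p-values in limma-voom were 0.601 to 0.669 for diet and 0.815 for every member for B-LGND2.

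The fitted log2 differences of the members ran from -1.73 to -0.40 for diet, with standard errors of 0.14 to 0.84, and from 0.20 to 1.97 for B-LGND2, with standard errors of 0.14 to 0.79. For GI 125490372 they were -1.45 ± 0.32 (SE) for diet and 1.01 ± 0.32 (SE) for B-LGND2, and for GI 142374935 they were -1.64 ± 0.43 (SE) and 1.45 ± 0.43 (SE). Neither row passed in any alternative, with limma adjusted p-values of 0.0812 to 0.944 and 0.114 to 0.944 for diet and of 0.279 to 1.00 and 0.224 to 1.00 for B-LGND2. Without normal diet vehicle replicate 2, limma-voom called the member at rank 59 between B-LGND2 and the normal diet (adjusted p = 0.0434), where 6.10% of all rows were called. Without that library and B-LGND2 replicate 2 together, it called rank 60 for diet (adjusted p = 0.0461, 0.688% of all rows called) and rank 59 both for B-LGND2 against vehicle (adjusted p = 0.0272, 0.0768% called) and against the normal diet (adjusted p = 0.0125, 12.3% called). Between B-LGND2 and the normal diet, 1 of 100 members is a smaller share than that of all rows in both fits. The rule required overlapping ranges of these groups over all libraries, so the smaller share describes the choice and is not a result. These fits leave out libraries that stood apart from their groups, and the part of that choice in the calls was not tested. Without normal diet vehicle replicate 2, the normal diet and B-LGND2 ranges of ranks 59 and 60 no longer overlapped, so neither met the rule. Of the 100 members 72 then met it, and 46 did without that library and B-LGND2 replicate 2 together.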

How the data were processed

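Per the labels' protocols, poly(A)-enriched RNA was sequenced on an Ion Torrent Proton. STAR 2.5.2 and mm9 appear in the submitters' processing notes, without a role. The counting, its annotation and its use of strand: not given in the sources used here. Rows sharing reads with copies or overlapping records are uncertain. The deposited values are raw whole-number counts, and 0 columns could not be assigned. Columns were matched by the sample numbers in the labels' titles, and replicate numbers are names only. The members, lists and comparisons were chosen with earlier results of these data known.

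CPM for the selection used column totals. Fits used limma-voom (limma 3.58.1, R 4.3.3) with a group-means model over 9 libraries, TMM scaling (trims of 0.3 and 0.05), a minimum CPM worth 10 counts at the median depth, reached by 3 or more libraries, with 15 counts summed over libraries, two-sided Benjamini-Hochberg adjustment over 28831 rows, and a threshold of 0.05. The planned quasi-likelihood count test was not used: the automated unit check could not read the table's numeric headers, and count models need that check. Limma-voom had been listed beforehand as another test. Scripts were tested on simulated data. Identifiers are printed for the member with the largest ratio and the most abundant member, by rule; other members go by rank, and those with extreme ratios were chosen after their values were seen. Planned marker lists could not be applied without gene names. No libraries of a group were duplicates, with chi-square per degree of freedom at or above 19.03. Figures used matplotlib 3.10.9.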

Additional observations from a re-analysis of the deposited data

How the results depend on the processing

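The number of rows above a selection ratio of 1 was 108, and 465 with TMM-scaled totals. A pseudocount of 1 CPM, minimum means of 1 and 10 CPM, no overlap condition, and leaving out normal diet vehicle replicate 2 with B-LGND2 replicate 2 gave 95 to 161. With single libraries left out it was 102 to 405: 405, 369 and 203 without high fat diet vehicle replicates 1, 2 and 3, where fewer values have to lie below the rest, and at most 135 without any other library. The number of rows meeting the mean and overlap conditions changed as well. Without normal diet vehicle replicate 2, 131 of 5027 such rows exceeded 1. Without that library and B-LGND2 replicate 2 together, 117 of 2414 did, against 108 of 11786 with all libraries. The median log2 difference for diet moved from -0.40 to -0.66 with TMM and was -0.43 to -0.33 when each library was left out; for B-LGND2 it was 0.53 with TMM and 0.38 to 0.48. Between B-LGND2 and the normal diet the median of 0.04 turned to -0.13 with TMM, was -0.0082 to 0.071 when each library was left out, and was below 0 without B-LGND2 replicate 3. Of 45 alternative counts of called members 41 were 0. The others were 1: between B-LGND2 and the normal diet without normal diet vehicle replicate 2, and in each of the 3 comparisons without that library and B-LGND2 replicate 2 together; leaving out each library gave 0 to 1. Over all rows the first of these fits called 1825 of 29928, and the second 206, 23 and 3694 of 29949 for diet, B-LGND2 and B-LGND2 against the normal diet. Without normal diet vehicle replicate 2, 197 of 29928 rows were called for diet and 1 for B-LGND2, with 0 members among them. With scaling by total counts alone, 1 of 28831 rows, not a member, was called for B-LGND2. In the other comparisons with 0 members called, 0 of all tested rows were called. The identified rows kept their direction in 89 of 90 values. The exception was GI 142374935 between B-LGND2 and the normal diet, at 0.0534 without B-LGND2 replicate 2 against -0.19. For these changes the cause was not tested. Negative binomial alternatives were not run. No paired analysis was possible because the labels pair no libraries.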
